A study of Equus caballus with 6 samples.

Results

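Meiosis is the division in which spermatocytes pair their homologous chromosomes, break and exchange DNA between them, and separate them into haploid cells. This account covers 39 genes of that programme in stallion testis, chosen by name and grouped by step into cohesin, the synaptonemal complex, break formation and signalling, strand exchange, crossover, and progression through the meiotic divisions. A spot counted as a member where the gene table of the array platform gave it exactly 1 of these symbols. This found 34 probes for 31 of the 39 genes, among 23472 probes with 1 symbol for 18278 genes in all. The genes RAD21L1, SYCP3, SYCP2L, RAD51C, BRCA2, MEIOB and HFM1 had no such probe and PSMC3IP was named only on a probe shared with another gene, so these 8 were not analysed here. A further probe naming MSH5 together with another gene was likewise left out.

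The tissue was minced parenchyma from the testes of 6 adult stallions, which were kept on hay and horse feed and had 10 days to settle in the clinic. Intravenous dexamethasone, a synthetic glucocorticoid, was given at 0.1 mg/kg to 3 stallions, and the 3 control stallions received saline. All testes were collected 12 h after the injection, and the RNA of each stallion was read on 1 human CodeLink array. Parenchyma holds germ cells of all stages together with Sertoli, Leydig, peritubular and vascular cells, so fewer cells of a type and less RNA per cell cannot be told apart. The probes were designed for human transcripts, so a dim spot can mean a poor match to the horse transcript as well as little RNA, and the brightness of a probe is not read as an amount of RNA.

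During meiotic prophase the chromosomes are held by cohesin rings in which meiotic subunits stand in for mitotic ones, and homologues are joined along their length by the synaptonemal complex. Programmed breaks made by SPO11 are resected, invade the homologue with the help of the recombinase DMC1, and are in part turned into crossovers by the MSH4-MSH5 complex and its partners. Spermatocytes are abundant in the adult testis, and most of these genes are known mainly from germ cells. Others, among them SMC3, RAD21, ATM, ATR, BRCA1 and MLH3, also act in somatic cells.

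Each array carried 54990 spots, 53423 of them single gene probes, of which 42.5% to 47.8% were above background per array. Spots are called above background here where the deposited quality flag holds no L and no letter of another fault. That L marks a spot near background was inferred from the values, since the sources used here do not define the letters. Of spots with L 99.99% had a deposited signal strength, the spot mean over noise, under 1, against 2.48% of those flagged G alone. Values are normalised log2 intensities with an offset of 50 added before the logarithm, which compresses differences of dim spots. Genes that mark the expected germ and somatic cells were read on all 6 arrays for 11 of 14 spermatogonial genes with a probe, 9 of 14 other spermatocyte genes, 9 of 17 spermatid, 8 of 14 Sertoli and 5 of 10 Leydig genes. The defining genes PGK2, PRM2, TNP1, SOX9 and NR5A1 had no probe above background on any array. Of the other cells of the parenchyma, 1 of 5 peritubular myoid, 1 of 6 endothelial and 1 of 5 macrophage genes were read on all 6 arrays.

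Of the 34 meiosis probes, 18 were above background on all 6 arrays, 9 on 1 to 5 and 7 on none. That is 52.9% on all arrays, against 39.3% of all probes with 1 symbol. The number of meiosis probes above background was 21, 23 and 24 in the dexamethasone stallions and 23, 23 and 24 in the controls. In the cohesin step 4 of 6 genes with a probe were read on all arrays, in the synaptonemal complex 2 of 7, in break formation and signalling 3 of 5, in strand exchange 3 of 4, in crossover 3 of 6, and in progression 2 of 3. The 10 probes that failed the filter of at least 3 arrays above background were those of RAD21, SYCP2, SYCE1, HORMAD1, ATR, BRCA1 and TEX14, both probes of MLH3 and 1 of the 2 of MEI1. Their spots averaged 1.14 to 1.56 times the local background, and no difference is read from them.

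**Figure D1:**
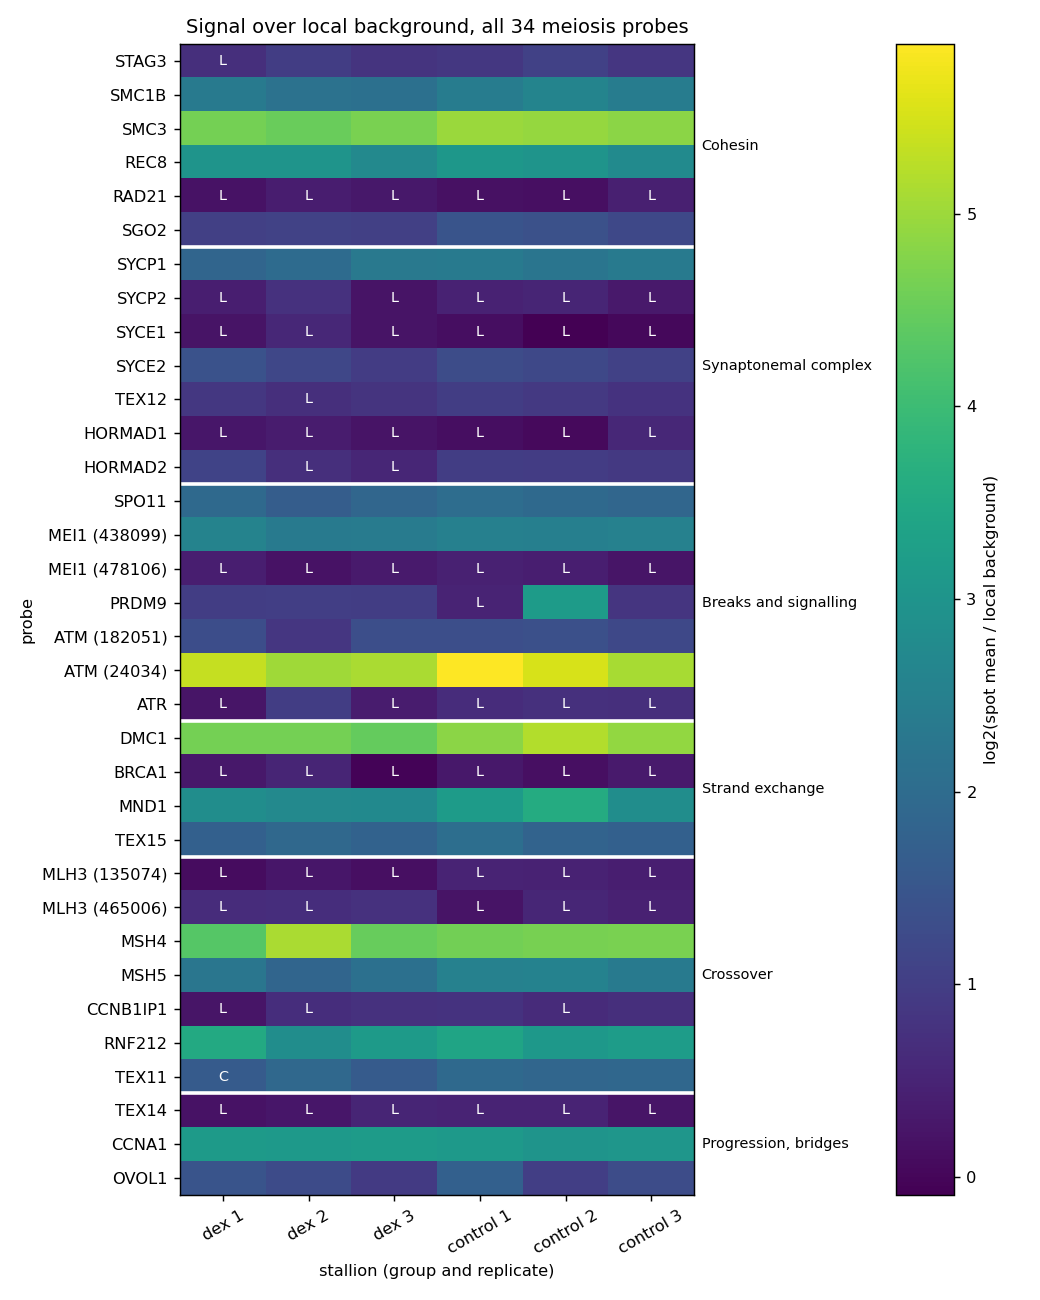
Signal of each of the 34 meiosis probes (rows, grouped by step) in each stallion (columns), as log2 of spot mean over local background. L marks a spot near background and C a spot with another quality flag, which was treated as missing; the dark rows marked L across all 6 stallions are the 7 probes read on none, and PRDM9 in control stallion 2 stands out from its row.

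None of the 24 tested meiosis probes, from 23 genes, passed limma's test of dexamethasone against saline when p was adjusted by Benjamini-Hochberg over the full 24590 tested, where the smallest adjusted p of a meiosis probe was 0.999. Of all tested probes 0.00407% passed, which is 1 probe, of the mitochondrial assembly factor ATPAF1. At an unadjusted p under 0.05 there was 1 meiosis probe, that of MSH5 (4.17% of the 24), against 3.29% of all probes, or 1.81% in its direction, lower under dexamethasone. The median difference of the 24 was -0.05 on the log2 scale, with 9 higher and 15 lower in the dexamethasone stallions (62.5% lower). Over all tested probes 52.5% were lower and the median was -0.0068. This split moved with the processing. With median scaling 87.5% of the meiosis probes and 77.2% of all probes were lower, and with cyclic loess 62.5% and 49.4%. With the authors' deposited values, which differ in background handling as well as scaling, it was 75.0% and 66.3%, and where 6 arrays above background were required, 55.6% and 51.6%. The slide numbers form a run of 4 arrays (2 stallions against 2) and a run of 2 (1 against 1), and the median was -0.04 in the former and -0.03 in the latter.

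The differences were small for most members. For 14 of the 24 probes the difference was under 0.1 on the log2 scale in either direction, and only PRDM9 exceeded 0.3. Apart from PRDM9, the 95% intervals lay between -0.56 (MND1) and 0.60 (MSH4), which on this scale is at most 1.47-fold higher in the controls or 1.51-fold higher in the dexamethasone stallions. Because of the offset, larger changes of the RNA itself may lie behind such limits in dim spots. For any 1 gene in 3 stallions against 3, the smallest two-sided p of an exact permutation test is 0.1.

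**Figure D2:**
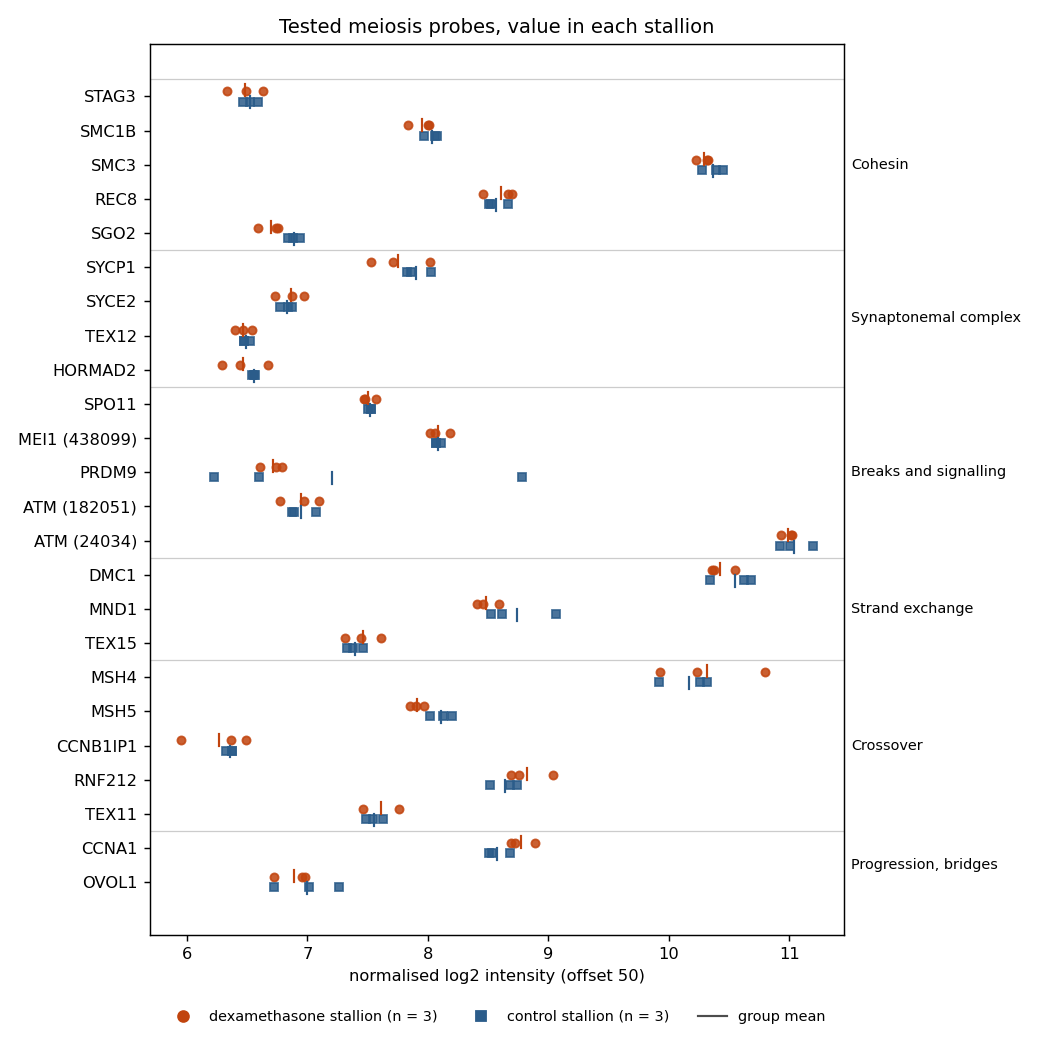
Normalised log2 intensity (x axis, offset 50) of the 24 tested meiosis probes in each of the 3 dexamethasone and 3 control stallions, with group means as vertical ticks; TEX11 has 2 dexamethasone values. Most rows show overlapping groups, with 1 distant control value for PRDM9 and separated groups for SGO2, MSH5 and CCNA1.

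Cohesin keeps sister chromatids together until the meiotic divisions. SGO2, the shugoshin that protects centromeric cohesin during the first division, measured 6.59, 6.74 and 6.76 in the dexamethasone stallions and 6.94, 6.88 and 6.84 in the controls. All 3 dexamethasone values were below all 3 control values, with a gap of 0.08 between the groups. The difference was -0.19 ± 0.09 on the log2 scale (limma's moderated SE, adjusted p = 0.999). Stallions of the larger slide run differed by -0.24 and those of the smaller by -0.08. Background subtraction gave -0.37, and the authors' deposited values gave -0.39. SGO2 had an unadjusted p under 0.05 in 6 of 18 alternatives, and with background subtraction or an offset of 16 it was the 1 meiosis probe with such a p, in place of MSH5. The SGO2 spots lay only 2.04 to 2.75 times above their local background.

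SMC3, the cohesin ATPase shared by mitotic and meiotic rings, measured 10.22, 10.33 and 10.31 in the dexamethasone stallions and 10.27, 10.45 and 10.39 in the controls. The groups overlapped, and the difference was -0.08 ± 0.09 (SE). REC8, the meiotic kleisin that closes the ring, measured 8.66, 8.70 and 8.45 in the dexamethasone stallions and 8.52, 8.66 and 8.51 in the controls. Its groups overlapped over nearly their whole range, with a difference of 0.04 ± 0.10 (SE), or -0.08 with median scaling. SMC1B, the meiotic partner of SMC3, differed by -0.09 ± 0.09, and STAG3, the meiotic subunit that binds the kleisin, by -0.04 ± 0.10 (SE). STAG3 had 2 of 3 dexamethasone spots above background, and its difference was 0.04 without dexamethasone replicate 1. None of the 5 tested cohesin probes passed, 4 were lower and 1 higher, and their median was -0.08.

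The synaptonemal complex is built from lateral elements on each chromosome axis, transverse filaments and a central element. SYCP1, the transverse filament protein, measured 7.53, 7.71 and 8.02 in the dexamethasone stallions and 7.86, 7.82 and 8.03 in the controls. Its spread came mostly from the dexamethasone group, in which replicate 1 was low and replicate 3 lay at the level of the controls. The difference was -0.15 ± 0.13 (SE), and it was -0.04 without dexamethasone replicate 1 and -0.28 without replicate 3. SYCE2, a central element protein, measured 6.98, 6.88 and 6.73 in the dexamethasone stallions and 6.84, 6.87 and 6.77 in the controls, a difference of 0.03 ± 0.09 (SE) between overlapping groups. TEX12, which forms the central element together with SYCE2, differed by -0.02 ± 0.08 (SE). HORMAD2, which marks unsynapsed axes, differed by -0.09 ± 0.10 (SE), with 1 of 3 dexamethasone spots and 3 of 3 control spots above background. With the authors' deposited values HORMAD2 differed by -0.26, and without dexamethasone replicate 3 by 0.0014. Of the 4 tested probes of the complex 3 were lower and 1 higher, with a median of -0.05, and none passed.

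SYCE1, another central element gene, had no spot above background. Its values of 5.93, 6.25 and 5.93 in the dexamethasone stallions and 5.86, 5.69 and 5.76 in the controls did not overlap. The same held for both probes of MLH3, a mismatch repair protein that resolves crossovers, and the pair pointed in opposite directions. Probe 135074 was at 5.83, 5.99 and 5.88 in the dexamethasone stallions and 6.18, 6.22 and 6.10 in the controls, and probe 465006 at 6.27, 6.36 and 6.41 against 5.93, 6.21 and 6.12. The pixel medians of probe 135074 overlapped, at 53, 52 and 51 in the dexamethasone stallions and 50, 54 and 47 in the controls. Its control spots had means 1.46, 1.42 and 1.32 times their medians, ratios reached by 1.05%, 0.258% and 0.528% of gene spots on those arrays. Pixel medians of probe 465006 did not overlap, at 76, 68 and 64 under dexamethasone and 47, 54 and 54 in the controls. Pixel medians of SYCE1 did, at 46, 60 and 50 under dexamethasone and 49, 44 and 50 in the controls. The SYCE1 and MLH3 probes are the 3 with separated groups among the 10 untested, where 9.92% of all untested gene probes with 6 values had separated groups. Since all but 1 of these spots lay near background, no fold is given.

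Breaks are placed and made early in prophase. SPO11, the enzyme that cuts the DNA, measured 7.48, 7.47 and 7.57 in the dexamethasone stallions and 7.53, 7.50 and 7.53 in the controls. This was the narrowest spread of any tested member, 0.10 over all 6 stallions, and the difference was -0.02 ± 0.08 (SE). MEI1, which is needed for break formation, measured 8.18, 8.06 and 8.01 in the dexamethasone stallions and 8.06, 8.07 and 8.11 in the controls, a difference of 0.0036 ± 0.08 (SE). Its other probe was above background on no array.

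ATM, the kinase that responds to breaks and limits their number, was read by 2 probes, 24034 and 182051. The former measured 11.02, 11.01 and 10.93 in the dexamethasone stallions and 11.19, 11.01 and 10.92 in the controls, the latter 6.97, 6.77 and 7.09 against 6.87, 7.07 and 6.89. The groups overlapped for both, with differences of -0.05 ± 0.09 and 0.0002 ± 0.11 (SE).

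PRDM9, the histone methyltransferase that places breaks at hotspots in many mammals, measured 6.61, 6.79 and 6.74 in the dexamethasone stallions and 6.23, 8.78 and 6.59 in the controls. Control stallion 2 stood far above the other 5, and the control SD was 1.38 against 0.09 in the dexamethasone group. The difference of -0.49 ± 0.52 (SE) rested on that spot, and was 0.30 without control replicate 2. In that spot the mean pixel intensity of 453 was 3.77 times the median of 120, a ratio reached by 7 of 53031 gene spots on the array, although its quality flag was good. With the pixel median in place of the mean, a setting added after the data were seen, PRDM9 differed by 0.11. Control replicate 1 was near background. The 5 tested probes of this step had a median difference of -0.02, 2 higher and 3 lower.

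In strand exchange, DMC1, the meiotic recombinase, measured 10.37, 10.55 and 10.36 in the dexamethasone stallions and 10.34, 10.62 and 10.68 in the controls. The lowest value of all was a control, and the difference was -0.12 ± 0.11 (SE), or -0.28 with median scaling. MND1, of the accessory complex that helps DMC1 invade the homologue, measured 8.41, 8.45 and 8.59 in the dexamethasone stallions and 8.61, 9.07 and 8.52 in the controls. One control value lay inside the range of the dexamethasone group and control replicate 2 lay far above the rest. The difference was -0.25 ± 0.14 (SE), and it was -0.08 without control replicate 2. In the larger and the smaller slide run MND1 differed by -0.41 and by 0.07, in opposite directions. TEX15, needed for repair of meiotic breaks, differed by 0.07 ± 0.10 (SE), or -0.01 without dexamethasone replicate 2.

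Crossover genes included the only meiosis probe with an unadjusted p under 0.05. MSH5, which with MSH4 forms a clamp around recombination intermediates, measured 7.97, 7.85 and 7.90 in the dexamethasone stallions and 8.01, 8.20 and 8.12 in the controls. The groups were separated by 0.04 between the highest dexamethasone and the lowest control value. The difference was -0.20 ± 0.09 (SE, limma's adjusted p = 0.999), 0.87 times the control level on this scale. MSH5 differed by -0.20 in the larger slide run, by -0.22 in the smaller, and by -0.32 with the authors' deposited values. Its unadjusted p was under 0.05 in 10 of 18 alternatives. It was not with background subtraction, an offset of 16, the slide run as a block or the pixel median. Nor was it without dexamethasone replicate 2 or 3 or control replicate 2 or 3.

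MSH4, the other subunit of that clamp, measured 9.93, 10.80 and 10.23 in the dexamethasone stallions and 9.92, 10.26 and 10.32 in the controls. Dexamethasone replicate 2 was the highest and the groups overlapped. The difference was 0.15 ± 0.20 (SE), and it turned to -0.09 without that stallion. RNF212, a ligase that stabilises crossover sites, measured 9.03, 8.69 and 8.76 in the dexamethasone stallions and 8.74, 8.51 and 8.68 in the controls, a difference of 0.18 ± 0.11 (SE). It was 0.05 with median scaling and 0.08 without dexamethasone replicate 1. TEX11, an X-linked protein of crossover sites, differed by 0.06 ± 0.12 (SE) over 2 dexamethasone and 3 control values. CCNB1IP1, a ligase acting against RNF212 at these sites, differed by -0.09 ± 0.13 (SE) but was above background on 3 of 6 arrays. With the authors' deposited values its difference was -0.47, and without dexamethasone replicate 1 it was 0.07. Of the 5 tested crossover probes 3 were higher and 2 lower, with a median of 0.06.

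**Figure D3:**
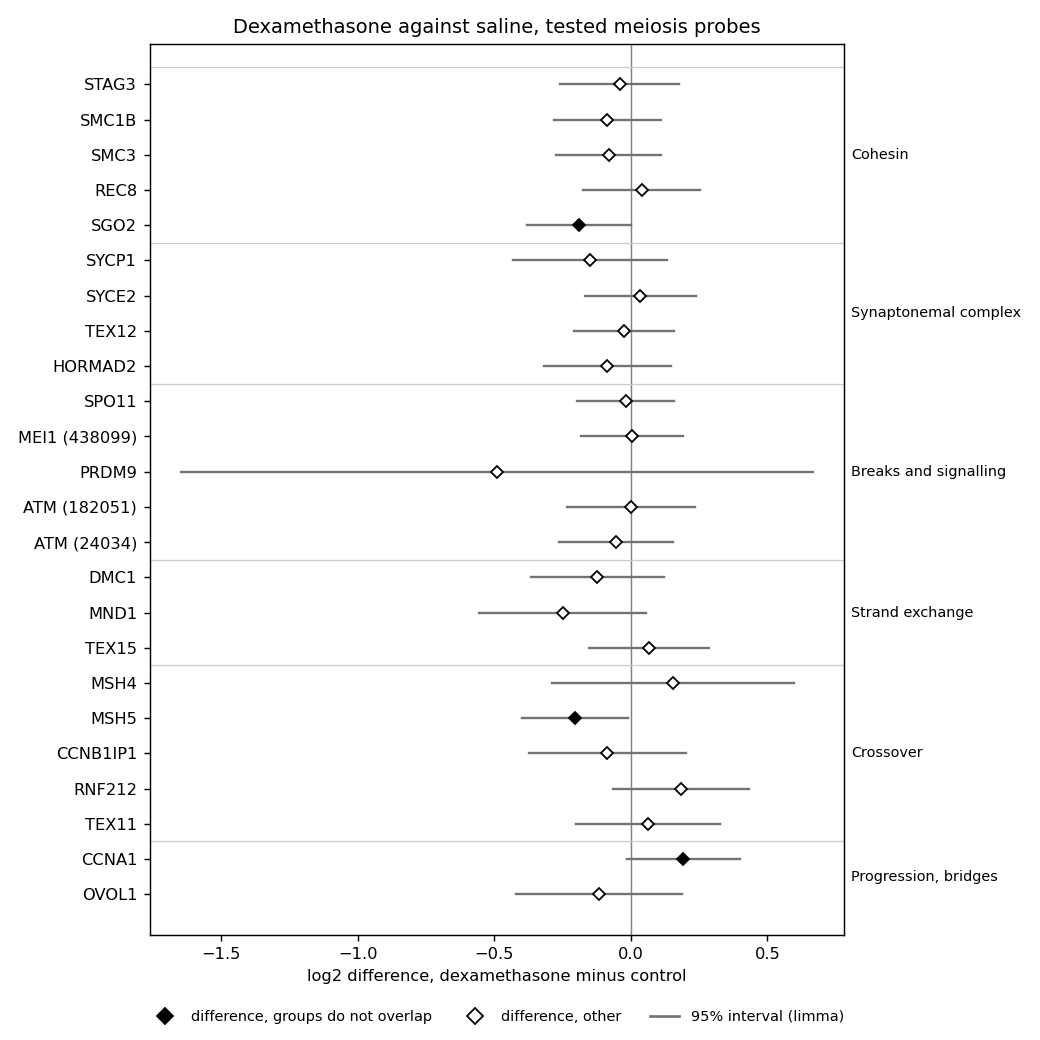
Log2 difference between dexamethasone and control stallions (x axis) for the 24 tested meiosis probes, with limma's 95% interval as a grey line; filled diamonds mark the 3 probes whose groups do not overlap. All intervals span 0 except that of MSH5, and PRDM9 has by far the widest.

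Progression out of prophase was read by CCNA1, the germ cell cyclin A that spermatocytes need to enter the first division. It measured 8.69, 8.73 and 8.89 in the dexamethasone stallions and 8.53, 8.51 and 8.68 in the controls. The groups were separated, but by only 0.0051 between dexamethasone replicate 1 and control replicate 3. The difference was 0.19 ± 0.09 (SE, limma's adjusted p = 0.999), at 0.19 and 0.21 in the larger and smaller slide run and 0.06 with median scaling. Its unadjusted p was under 0.05 in 4 of 18 alternatives, among them the slide run as a block and the pixel median. OVOL1, a transcription factor of pachytene spermatocytes, measured 6.95, 6.98 and 6.72 in the dexamethasone stallions and 7.27, 6.72 and 7.01 in the controls, a difference of -0.12 ± 0.14 (SE). TEX14, a protein of the bridges between germ cells, was above background on no array.

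Separated groups were thus seen for SGO2, MSH5 and CCNA1, 3 of the 23 tested probes with 6 values, where 8.36% of all tested probes with 6 values had separated groups. SGO2 and MSH5 were lower and CCNA1 was higher in the dexamethasone stallions. The direction of each was the same in all 18 alternatives. Their sizes, however, varied with the processing and the stallions included, at -0.39 to -0.14 for SGO2, -0.32 to -0.16 for MSH5 and 0.06 to 0.25 for CCNA1. The values -0.14, -0.16 and 0.25 came from leaving out 1 stallion, and the other ends from other processing.

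**Figure D4:**
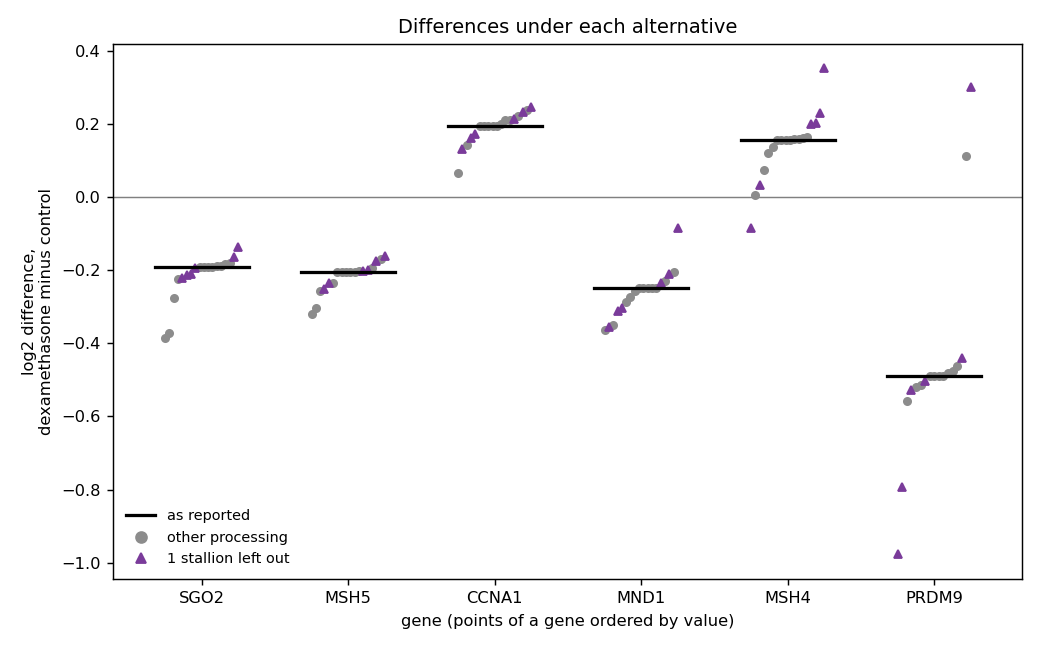
Log2 difference between dexamethasone and control stallions (y axis) for 6 genes as reported (black bars), under other processing (grey circles) and with 1 stallion left out (triangles). SGO2, MSH5 and MND1 stay below 0 and CCNA1 above, while MSH4 and PRDM9 change sign when 1 stallion is left out, and PRDM9 also with the pixel median.

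The stallions themselves varied about as much at these genes as at others. The pooled SD within groups had a median of 0.12 over the 24 meiosis probes and 0.12 over all tested probes. It ranged from 0.04 for SPO11 to 0.35 for MSH4 and 0.98 for PRDM9. Over the 23 probes with 6 values, a dexamethasone stallion held the lowest value for 17 (73.9%) and the highest for 13 (56.5%), against 55.7% and 50.6% of all tested probes with 6 values. Each stallion's median deviation from the probe means was -0.036, -0.0014 and -0.018 in the dexamethasone group and -0.0019, 0.032 and 0.020 in the controls. The groups overlapped by a small margin, and the same medians over all tested probes with 6 values lay between -0.015 and 0.0072.

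The median size of a difference, in either direction, was 0.09 over the meiosis probes, 0.08 over probes of other genes of the meiotic programme and 0.07 over all tested probes. Of a list of 102 such genes 82 had a probe and 58 were tested, with 63 probes. Of these 28 were higher and 35 lower with a median of -0.02. None passed the adjusted test, and 1 probe (1.59%) had an unadjusted p under 0.05. It was that of TOP6BL, the partner subunit of SPO11 in break formation, at 6.81, 6.89 and 7.03 in the dexamethasone stallions and 7.30, 7.19 and 7.05 in the controls. Its groups did not overlap and differed by -0.27 ± 0.10 (SE, limma's adjusted p = 0.999), by -0.39 in the larger slide run and -0.02 in the smaller. Of the 58 probes of this list with 6 values 5 had separated groups, against 8.36% of all tested probes with 6 values. Among the 5 were TOP6BL, lower, and MRE11, higher. Without dexamethasone replicate 1 no probe of this list had an unadjusted p under 0.05. The lower probes with the next smallest p were those of PPP2R1A, a phosphatase scaffold, at -0.23 ± 0.11, ESCO2, a cohesin acetyltransferase, at -0.15 ± 0.10, and SMC1A, the somatic counterpart of SMC1B, at -0.14 ± 0.09 (SE). The other tested probes of SMC1A differed by 0.03 ± 0.10 and, for the brightest of the 3, by -0.03 ± 0.09 (SE). Among the higher, NBN differed by 0.16 ± 0.09 and MRE11 by 0.11 ± 0.08, both of the complex that trims breaks, SUN2, which tethers telomeres to the nuclear envelope, by 0.21 ± 0.12, and CCNB1, a cyclin of division, by 0.18 ± 0.12 (SE).

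The marker lists of other cells moved as follows beside the meiosis median of -0.05. Spermatogonial genes had a median of 0.03 over 12 tested probes, other spermatocyte genes 0.0049 over 9, spermatid genes 0.04 over 12, Sertoli genes -0.02 over 15, Leydig genes -0.08 over 11, peritubular myoid genes -0.21 over 4 and endothelial genes -0.08 over 5. The Leydig median covers unlike members, with 5 probes higher and 6 lower in the dexamethasone stallions. The highest was a probe of STAR, at 0.19 ± 0.10 (SE), and the receptor gene LHCGR differed by -0.08 ± 0.09 (SE). INSL3, a hormone of Leydig cells, differed by -1.21 ± 0.23 and -0.52 ± 0.22 on its 2 probes and the glutathione transferase GSTA3 by -0.66 ± 0.16 (SE). These 3 of 11 probes (27.3%) had an unadjusted p under 0.05, against 3.29% of all probes, and none of the 3 passed the adjusted test. The lists were chosen with earlier results of these data known, and 2 of the 3 probes are of 1 gene. The share is therefore no test of Leydig genes as a set. Of the peritubular myoid probes 1 of 4 had an unadjusted p under 0.05, of the myosin light chain kinase MYLK, at -0.22 ± 0.08 (SE). Of the spermatid probes 2 of 12 (16.7%) did, of TEKT2 at 0.34 ± 0.14 and ZPBP at -0.21 ± 0.08 (SE). Of the Sertoli probes 1 of 15 did, of CLDN11 at 0.48 ± 0.13, whose other probe differed by 0.04 ± 0.12 (SE). None of these passed the adjusted test, and the other marker lists had no probe with such a p. Macrophage genes had a median of 0.08 over 2 and erythrocyte genes 0.13 over 1. For the other spermatocyte genes, of which HSPA2 and AURKC also stand in the list of 102, the stallions' median deviations ran from -0.07 to 0.03 in the dexamethasone group and from -0.11 to 0.09 in the controls. For spermatid genes they ran from -0.05 to 0.05 and from -0.08 to -0.0019. For Leydig genes they ran from -0.08 to -0.0057 in the dexamethasone group and from 0.03 to 0.12 in the controls. The part of cell composition in the meiosis differences was not tested.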

How the data were processed

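Total RNA of testicular parenchyma from 6 stallions was read as Alexa-647 on 1-colour arrays, per the labels. The deposited intensity columns give spot mean, spot median, local background and the authors' scaled intensity, and the deposited signal strength score is, from the values, spot mean over noise. The scanner software is not given in the sources used here. Spots flagged M have no value, and those flagged C, I or P were set to missing. Spot mean and background were corrected with normexp (offset 50), quantile normalised and logged to base 2 (log2, against the authors' linear scale), all in limma 3.58.1 (R 4.3.3). Probes above background on 3 or more of 6 arrays, with at least 2 values per group, were tested with lmFit and eBayes, two-sided, adjusted over all tested probes, without covariates. The fit was tested on simulated data. Errors of differences are moderated SEs. The number of arrays limits the precision.

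Groups came from the labels, and replicate numbers pair no stallions. Slide runs were set by a gap in the slide numbers of the files. Values in every stallion were given for members with an unadjusted p under 0.05 or separated groups, the 2 brightest members of each step and members with several probes. SPO11 and PRDM9 were added to these after their values were seen. Of the list of 102 genes, up to 4 higher and 4 lower genes were named by p. The members, lists and steps were chosen with earlier results of these data known. Of the 39 symbols, 38 were found in the horse gene table, and PRDM9 was not. Figures used matplotlib 3.10.9 in Python 3.11.15.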

Additional observations from a re-analysis of the deposited data

How the results depend on the processing

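The count of 0 meiosis probes past the adjusted test held under every alternative run, and the smallest adjusted p of any meiosis probe in them was 0.659, in limma. Over all probes, 0 passed with background subtraction, under trend and robust eBayes settings or where 6 arrays above background were required, and 0 to 1 with single stallions left out. Meiosis probes with an unadjusted p under 0.05 numbered 1 (3.29% of all probes), and 5 with median scaling (DMC1, SMC3, MSH5, MND1 and SGO2, all lower; 7.31% of all probes), 4 with no filter (MSH5 and the near-background SYCE1 and both MLH3 probes; 3.92%), 2 with the authors' values, with array weights, under trend and robust eBayes settings and where 6 arrays were required (3.12% to 3.53% of all probes), and 0 to 2 with single stallions left out (2.64% to 4.57% of all probes; 0 without dexamethasone replicate 2, 2 without control replicate 3). Of the 63 probes of other meiosis genes 1 had such a p, to be read against the same shares of all probes, and 5 with median scaling, 2 with the authors' values (3.41% of all probes) and 0 to 4 with single stallions left out (0 without dexamethasone replicate 1, 4 without control replicate 3). The median of the meiosis probes was -0.05, and -0.074 with background subtraction, -0.10 with median scaling, -0.13 with the authors' values and -0.014 with the pixel median, where the median of all probes was -0.0068, -0.0105, -0.0834, -0.0653 and -0.0061 in that order, and -0.086 to -0.019 with single stallions left out (the former without dexamethasone replicate 2, the latter without control replicate 2). The filters change which probes are tested; other causes were not tested. Of 424 single differences 36 changed sign, none of them past the adjusted test, and 9 of the 24 probes kept their sign throughout. Keeping spots flagged C, I or P and the pixel median were added after the data were seen. No paired analysis was possible because the labels give no number that pairs stallions. Probes that failed the filter lay near background on most arrays, and no difference is read from them here, with or without the filter.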
